A study of Mus musculus with 9 samples.

Results

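The MYC and MAX network is a group of transcription factors that share a basic helix-loop-helix leucine zipper domain and bind DNA as dimers. MAX is the common partner: MYC with MAX activates genes for growth, ribosome production and cell division, while the MXD proteins (MXD1, MXI1, MXD3 and MXD4) and MNT take the place of MYC on MAX and recruit SIN3 and histone deacetylases to repress. MGA, a very large protein, joins MAX in a repressive Polycomb complex, and MLX pairs with MLXIP (also called MondoA) to switch on glucose-responsive genes. Human MXI1 is a known target of the hypoxia-inducible factors, which makes the network of interest in cells kept at low oxygen.

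The 10 members were chosen by gene symbol from the 55335 rows of the deposited expression table, and each symbol matched 1 row. Of these 10, 9 were above 0 in at least 1 library and 8 passed the filter of the test, a mean of at least 1 FPKM over all libraries (11802 genes in all). Mxd4 was not tested, since its mean over the 9 libraries was 0.988 FPKM, just under the filter, while Mxd3 passed at 1.04 FPKM. Mga was listed at 0 in every library, and whether this reflects the cells or the table was not tested. FPKM, fragments counted per unit of gene length and of library size, can be compared between genes because it is scaled by length.

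RNA was sequenced from BV2 cells, a mouse microglial line labelled wild type, in 9 libraries from 3 groups of 3. The control group was labelled 0 h. The hypoxia group was kept in 1% oxygen for 24 h, and the remaining group had 24 h of 1% oxygen with 100 µM ethanolamine added. Control and hypoxia therefore differ in labelled time as well as in oxygen, which cannot be told apart, and one tag on the control samples speaks of adipogenic differentiation, against their titles. Among adipocyte markers Adipoq, Plin1 and Lep were listed at 0 in every library, and Fabp4, which macrophages also express, was at 15.98 to 27.0 FPKM. BV2 cells were immortalised with a retrovirus carrying raf and myc oncogenes, so a viral myc is part of every group. Whether any of its reads fall on mouse Myc in this table was not tested.

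The libraries carried the markers of their cell type, and 11556 to 11924 genes reached 1 FPKM in each. The number of reads is unknown. Of 10 microglia and macrophage markers 9 reached 1 FPKM, Aif1 stayed at or below 0.252 FPKM, and markers of neurons, astrocytes, oligodendrocytes and T cells all stayed below 1 FPKM. The endothelial list reached 1 FPKM through Flt1 alone. In bulk RNA of this kind, fewer cells with a transcript and less of it per cell cannot be told apart. Whether the libraries stem from separate cultures is not stated, so the p-values below measure the spread between these samples, which may be technical.

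Promoters of Mxd1, Mxi1 and Mxd4 are shown here as a description. They were picked because these genes were higher in hypoxia, so a motif in them is no support for a tie to that rise. RefSeq (GRCm38.p6) windows of the 250 bases before the annotated start were matched for 9 of the 10 members, not Myc, with 3 start sites for Mxi1 and 11 windows in all. They were searched on both strands for the E-box CACGTG, which MYC and MXD dimers with MAX bind, and for the core of hypoxia-inducible factor sites, ACGTG or GCGTG. The first of these cores lies within the E-box, so every E-box counts as a core as well. Matches were counted over whole windows. Bases that GENCODE M21 annotates as exon are left out of the printed sequences, and capitals mark the matches. The first Mxi1 window and the Mxd3 window, which held no match, are not printed. Nor is the third Mxi1 window, which is annotated as exon.
Mxd1, chr6:86669162.0-86669409.0, minus strand: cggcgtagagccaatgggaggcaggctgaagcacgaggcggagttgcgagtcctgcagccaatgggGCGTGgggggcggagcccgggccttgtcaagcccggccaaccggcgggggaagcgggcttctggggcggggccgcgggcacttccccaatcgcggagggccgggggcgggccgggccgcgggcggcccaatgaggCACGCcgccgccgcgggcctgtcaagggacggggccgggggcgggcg
Mxi1, second start, chr19:53329163.0-53329412.0, plus strand: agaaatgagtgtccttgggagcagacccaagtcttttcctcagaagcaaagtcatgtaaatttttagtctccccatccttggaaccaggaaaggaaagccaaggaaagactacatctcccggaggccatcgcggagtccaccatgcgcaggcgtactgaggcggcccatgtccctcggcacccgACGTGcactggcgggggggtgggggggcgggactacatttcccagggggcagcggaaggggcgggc
Mxd4, chr5:34187721.0-34187960.0, minus strand: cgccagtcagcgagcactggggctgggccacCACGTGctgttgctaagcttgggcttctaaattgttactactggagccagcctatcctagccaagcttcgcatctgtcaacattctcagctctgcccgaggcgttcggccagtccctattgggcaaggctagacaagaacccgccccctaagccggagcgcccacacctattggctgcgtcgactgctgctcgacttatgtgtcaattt

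The Mxd1 window held 2 cores and no E-box. The first Mxi1 window held neither motif, and the other two held 1 core each, at 66 and 25 bases before their starts. The Mxd4 window held 1 E-box, 219 bases before the start, with no core outside it. Cores were also found in the window of Mlxip, which showed no change past the test and held 2, with no E-box. Mga also held 2 and no E-box, but its listing at 0 gives no change to set beside them. The windows of Mxd3 and Max held neither motif. The E-box was also found in the windows of Mnt and Mlx, at 123 and 40 bases before the start, and Mnt held 1 core outside it. Among all 32851 mouse windows of this length 38.6% held a core and 6.02% held the E-box. Letters of this kind are a description of the window and not evidence of a bound factor.

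Myc, which encodes the activating partner, was a low transcript in these cells and was higher in hypoxia. The gene lies on chromosome 15 from 61985391 to 61990374 (plus strand, GRCm38) and shares no exon with another annotated gene. Its level was 0.926, 1.15 and 0.785 FPKM in control libraries 1 to 3 and 2.26, 1.88 and 1.63 FPKM in the hypoxia libraries. Every hypoxia library lay above every control library, a separation seen for 27.3% of all tested genes, with 37.7% separated the other way. With ethanolamine the levels were 1.16, 1.11 and 1.19 FPKM, below all hypoxia libraries and inside or just above the control range. The means were 0.954 ± 0.185 FPKM for control, 1.92 ± 0.319 for hypoxia and 1.15 ± 0.0384 with ethanolamine (SD, n = 3).

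On the log2(FPKM + 0.5) scale, which understates changes of low transcripts such as this one, Myc rose by 0.74 in hypoxia against control (SE 0.14, limma adjusted p = 0.0014). That change was exceeded by 11.6% of the tested genes. With ethanolamine against hypoxia the difference was -0.54 (SE 0.14, 95% interval -0.86 to -0.23). It did not pass the test over all genes (limma adjusted p = 0.128, unadjusted p = 0.00352), and 2.15% of the tested genes had a lower value in that comparison. Libraries of the group with ethanolamine lay wholly below those of hypoxia for 11.2% of all tested genes, so that separation is common here. Against control, Myc with ethanolamine differed by 0.19 (95% interval -0.12 to 0.51, limma adjusted p = 0.261).

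Relatives of Myc gave a mixed picture. Mycn, Mycl and Mycs were listed at 0 in all libraries. Bmyc, a rodent relative that lacks the DNA-binding and dimerisation domain, was more abundant than Myc. Control libraries held 7.03, 5.38 and 5.90 FPKM, hypoxia libraries 10.4, 9.55 and 9.68, and those with ethanolamine 15.1, 11.7 and 11.8. The groups did not overlap. Over all tested genes, 27.3% were separated upward in hypoxia against control and 10.5% with ethanolamine against hypoxia. Bmyc rose by 0.66 in hypoxia against control (SE 0.12, limma adjusted p = 0.00115), and its further difference of 0.36 with ethanolamine did not pass (limma adjusted p = 0.221).

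**Figure D1:**
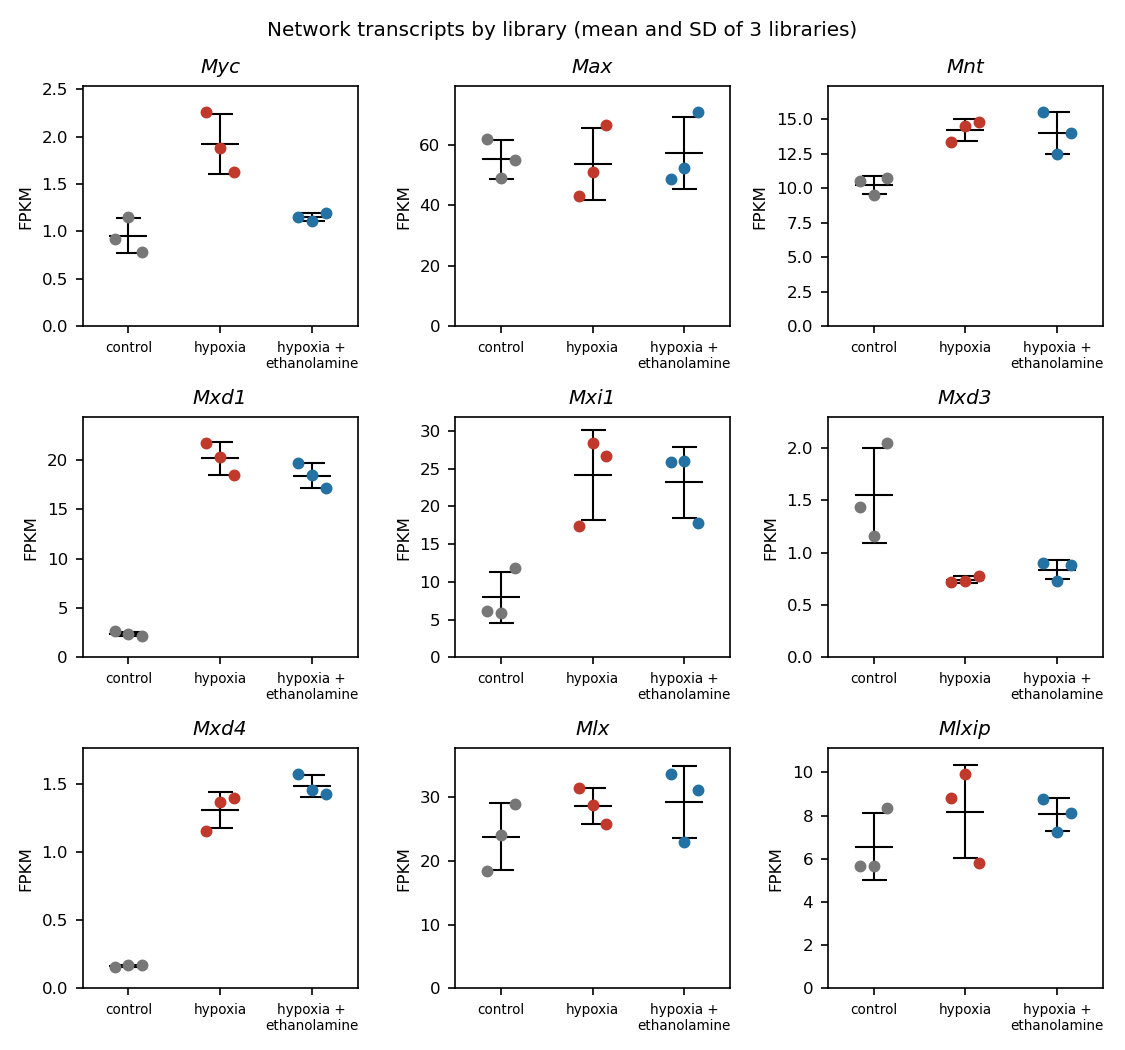
FPKM (linear axes from 0) of the 9 network genes above 0, with 1 point per library, the group mean as a long bar and the SD of 3 libraries as error bars. Mxd1, Mxi1, Mxd4, Mnt and Myc are higher in all hypoxia libraries than in all controls, and Mxd3 is lower. Such separation was common, at 27.3% of all tested genes upward and 37.7% downward. Myc with ethanolamine lies at 1.11 to 1.19 FPKM, below the hypoxia libraries, as 11.2% of all tested genes did.

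Max, the obligate partner, was the most abundant member in all 3 groups and showed no change past the test. It lies on chromosome 12 (76937269 to 76962201, minus strand). Its level was 61.8, 48.9 and 54.9 FPKM in the controls, 43.2, 50.9 and 66.4 in the hypoxia libraries and 48.5, 52.2 and 70.8 with ethanolamine. The groups overlapped widely, and within hypoxia the highest library was 1.54 times the lowest. The difference in hypoxia against control was -0.06 on the log2 scale (95% interval -0.47 to 0.35, limma adjusted p = 0.795), and it turned positive (0.01) with median-of-ratios and with quantile scaling. With ethanolamine against hypoxia it was 0.10 (95% interval -0.31 to 0.51, limma adjusted p = 0.845).

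Mxd1, a repressor that is induced when myeloid and other cells leave the cycle and mature, changed most among the tested members. It lies on chromosome 6 (86647042 to 86669161, minus strand). Control libraries held 2.62, 2.33 and 2.16 FPKM, hypoxia libraries 21.8, 20.3 and 18.5, and libraries with ethanolamine 19.7, 18.4 and 17.1. Every library at low oxygen lay far above every control, and the 2 groups at low oxygen overlapped. Of all tested genes, 27.3% were separated upward from control in hypoxia and 26.8% with ethanolamine. The mean in hypoxia was 8.51 times that in control, and Mxd1 rose by 2.85 on the log2 scale (SE 0.09, limma adjusted p = 4.15e-08). Only 56 of the 11802 tested genes (0.474%) had a higher change. With ethanolamine against hypoxia the difference was -0.13 (95% interval -0.33 to 0.07, limma adjusted p = 0.555).

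Mxi1, which encodes MXI1 (also called MXD2), was the most abundant MXD transcript in every group by its mean. It lies on chromosome 19 (53310518 to 53375810, plus strand). Its level was 6.07, 5.90 and 11.9 FPKM in the controls, 17.4, 28.4 and 26.6 in the hypoxia libraries and 25.8, 26.0 and 17.8 with ethanolamine. Control library 3 stood between the other controls and the lowest hypoxia library, and control still did not overlap either group at low oxygen. Such an upward separation from control was seen for 27.3% of tested genes in hypoxia and 26.8% with ethanolamine. Mxi1 rose by 1.58 in hypoxia against control (SE 0.29, limma adjusted p = 0.00111), a change exceeded by 3.07% of tested genes. It differed by -0.05 with ethanolamine against hypoxia (95% interval -0.69 to 0.60, limma adjusted p = 0.959). The table gives 1 value per gene, so it does not say which of the 3 start sites the reads came from.

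Mxd4, a member of the same family whose transcript is typical of resting cells, was close to absent in control. It lies on chromosome 5 (34173883 to 34187720, minus strand). The controls held 0.155, 0.172 and 0.169 FPKM, the hypoxia libraries 1.16, 1.37 and 1.40, and the libraries with ethanolamine 1.58, 1.46 and 1.43. All libraries at low oxygen lay above all controls, and those with ethanolamine all lay above those without. In hypoxia against control, 27.3% of all tested genes were separated in that direction. Because the mean of Mxd4 was under the filter it has no test in the main fit. An exact permutation test of the 3 values against 3 gave a two-sided p = 0.1 for hypoxia against control, the smallest that this design allows. Any values without overlap give that p, as those with ethanolamine against hypoxia did (difference 0.179 FPKM). It therefore does not weigh the size of a change. Without the filter on low values, Mxd4 rose by 1.44 (SE 0.11, limma adjusted p = 3.44e-05). The separation between the groups with and without ethanolamine did not pass in the same fit (difference 0.14, limma adjusted p = 0.692), and 10.5% of tested genes showed one of that direction.

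Mxd3 went the other way. This member is unlike its relatives in being expressed in cycling cells, in S phase, and it lies on chromosome 13 (55325168 to 55329823, minus strand). Controls held 1.43, 1.16 and 2.05 FPKM, hypoxia libraries 0.716, 0.726 and 0.776, and libraries with ethanolamine 0.898, 0.732 and 0.878. No library at low oxygen reached the lowest control. Over all tested genes, 37.7% were separated downward from control in hypoxia, and 37.7% with ethanolamine. Mxd3 fell by 0.70 in hypoxia against control (SE 0.16, limma adjusted p = 0.00503) and differed by 0.11 with ethanolamine against hypoxia (95% interval -0.27 to 0.48, limma adjusted p = 0.806). It passed the filter on low values only through the controls, where it was high. In the fit without that filter its limma adjusted p for hypoxia against control was 0.0149. Its exons share 105 bases with Prelid1 on the opposite strand, and the use of strand in the authors' counting is not given in the sources used here, so part of this low value may belong to Prelid1.

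Mnt, a broadly expressed repressor that competes with MYC in dividing and resting cells alike, rose by a modest amount. It lies on chromosome 11 (74830920 to 74845725, plus strand). Its level was 10.5, 9.47 and 10.8 FPKM in the controls, 13.3, 14.5 and 14.8 in the hypoxia libraries and 15.5, 12.5 and 13.97 with ethanolamine. Hypoxia exceeded control by 0.45 on the log2 scale (SE 0.09, limma adjusted p = 0.00177). Their libraries did not overlap, as for 27.3% of all tested genes in that direction. The difference with ethanolamine against hypoxia was -0.02 (95% interval -0.23 to 0.18, limma adjusted p = 0.926).

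The MLX branch showed no change past the test. Mlx (chromosome 11, 101087277 to 101092207, plus strand) was at 18.4, 24.1 and 28.8 FPKM in the controls, 31.5, 28.7 and 25.7 in the hypoxia libraries and 33.7, 22.9 and 31.1 with ethanolamine. Mlxip (chromosome 5, 123394798 to 123457932, plus strand) was at 5.65, 5.68 and 8.33 FPKM in the controls, 8.82, 9.94 and 5.78 in the hypoxia libraries and 8.78, 7.25 and 8.13 with ethanolamine. Both sets of values overlapped between groups. In hypoxia against control Mlx differed by 0.28 (95% interval -0.13 to 0.69, limma adjusted p = 0.212) and Mlxip by 0.29 (95% interval -0.17 to 0.75, limma adjusted p = 0.252). Single libraries moved both values. With 1 library left out Mlx ran from 0.11 (without control 1) to 0.43 (without control 3), and did not pass. Mlxip ran from 0.14 (without hypoxia 2) to 0.50 (without hypoxia 3), was at 0.46 without control 3, and passed only without hypoxia 3 (limma adjusted p = 0.0321). With ethanolamine against hypoxia both were at 0.01 (limma adjusted p = 0.979 and 0.989). Mlx transcripts were 3.65 ± 0.513 times as abundant as Mlxip transcripts in control, 3.64 ± 0.784 in hypoxia and 3.60 ± 0.387 with ethanolamine (SD, n = 3). Mlx shares 385 exon bases with Psmc3ip, Mlxip 267 with the antisense gene Gm15747, Mxi1 194 with Gm10197 and Mxd4 514 with the antisense gene Gm42846, all on the opposite strand. Mlxipl, the relative of Mlxip known as ChREBP, stayed at or below 0.0822 FPKM.

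**Figure D2:**
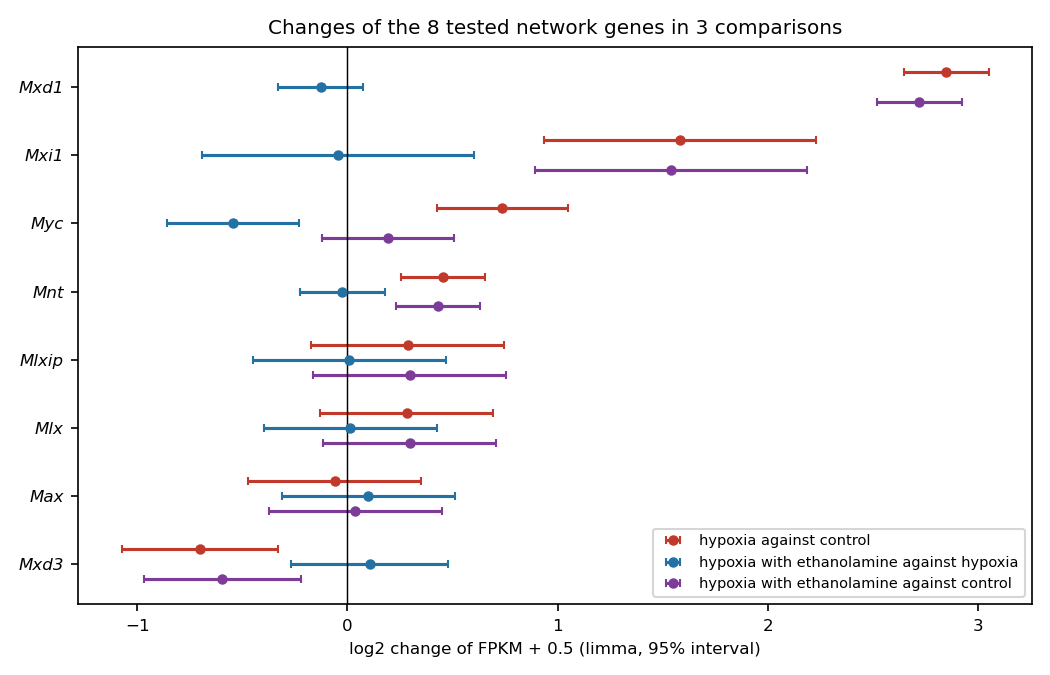
Log2 change of FPKM + 0.5 on the horizontal axis for the 8 tested members, as limma estimates (points) with 95% intervals (bars), coloured by comparison. Mxd1 and Mxi1 are at 2.85 and 1.58 in hypoxia against control, Mxd3 is at -0.70, and in ethanolamine against hypoxia the interval of Myc alone does not reach 0. The comparisons share libraries.

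Counted together, 4 of the 8 tested members were higher in hypoxia against control (Mxd1, Mxi1, Myc and Mnt) and 1 was lower (Mxd3). Mxd3 met the filter on low values only through its high controls, so its fall against control is not independent of the filter. The background was high: limma called 59.4% of all tested genes, 24.7% higher and 34.7% lower, and the share of members called was close to it. The median log2 change was 0.37 over the 8 members and -0.09 over all tested genes. With ethanolamine against hypoxia none of the 8 passed in limma, and 0.568% of all tested genes did. At an unadjusted p under 0.05 there was 1 member, Myc, and 14.7% of all tested genes. In hypoxia with ethanolamine against control, which shares its libraries with the other comparisons, Mxd1 (2.72), Mxi1 (1.54) and Mnt (0.43) were higher and Mxd3 (-0.60) was lower, with limma adjusted p of 6.71e-08, 0.00143, 0.00263 and 0.012. In that comparison 58.5% of all genes were called, 24.1% higher and 34.4% lower, and libraries did not overlap for 26.8% higher and 37.7% lower.

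The order of the levels changed between control and low oxygen. In control it ran Max, Mlx, Mnt, Mxi1, Mlxip, Mxd1, Mxd3, Myc, Mxd4, and the library values of Mnt and Mxi1, and of Mxi1 and Mlxip, overlapped. In hypoxia it ran Max, Mlx, Mxi1, Mxd1, Mnt, Mlxip, Myc, Mxd4, Mxd3. There Mlx and Mxi1 overlapped, as did Mxi1 and Mxd1. Mxd1 thus moved up from rank 6 in control to rank 4 in both groups at low oxygen. With ethanolamine the order was that of hypoxia except that Mxd4 stood above Myc.

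Set against Max, the partner transcripts were more abundant in sum at low oxygen. The summed FPKM of the MAX partners Myc, Mxi1, Mxd1, Mxd3, Mxd4 and Mnt was 21.7, 20.2 and 27.8 in control, 56.6, 67.2 and 63.7 in hypoxia and 64.7, 60.2 and 52.4 with ethanolamine. Max stood at 1.98 to 2.85 times that sum in control and at 0.757 to 1.04 times it in hypoxia. Within the sum, the share of Mnt was 38.7% to 48.3% in control and 21.5% to 23.6% in hypoxia. The share of Mxd1 was 7.77% to 12.1% in control and 28.96% to 38.4% in hypoxia, and both pairs of ranges were separate.

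The share of Myc in the same sum was small throughout. It was 4.27%, 5.70% and 2.82% in control, 3.996%, 2.80% and 2.56% in hypoxia and 1.79%, 1.85% and 2.27% with ethanolamine. Control and hypoxia overlapped, while all libraries with ethanolamine lay below all others. The 4 MXD transcripts together were 8.30 to 20.7 times as abundant as Myc in control, 18.1 to 29.0 times in hypoxia and 31.3 to 41.8 times with ethanolamine. These are ratios of transcripts, described without a test, and they leave out Mga and the viral myc.

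**Figure D3:**
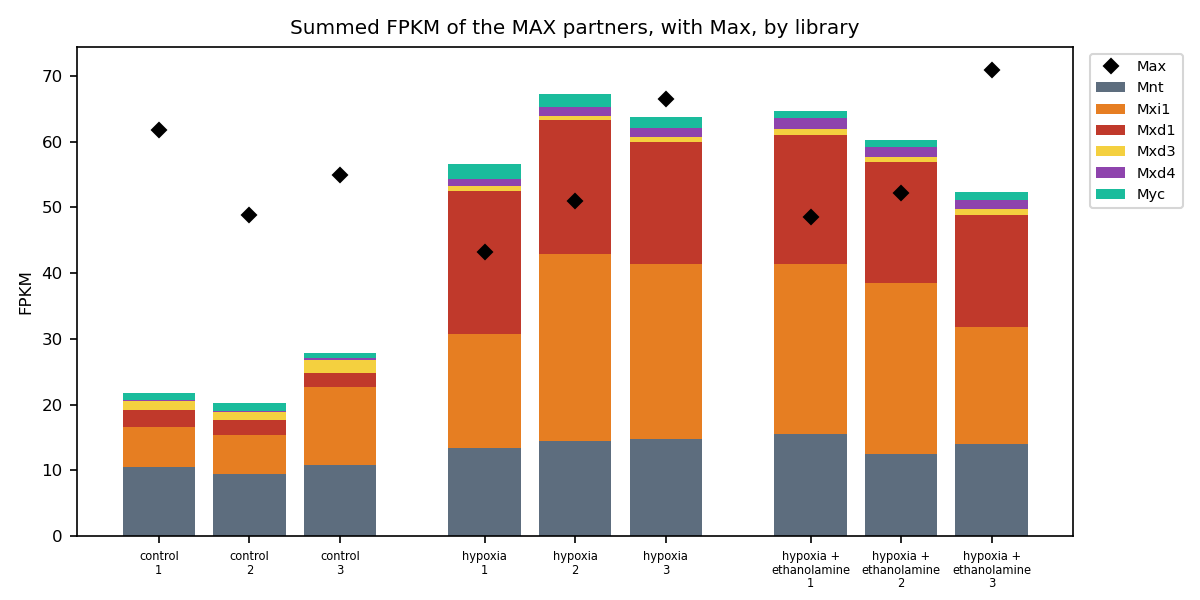
Stacked bars give the FPKM of 6 MAX partners in each of the 9 libraries, and black diamonds give the FPKM of Max (linear axis from 0). The stacks reach 20.2 to 27.8 in control and 52.4 to 67.2 at low oxygen, mostly through Mxi1 and Mxd1, while the diamonds lie at 43.2 to 70.8 in all groups.

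Genes known to be activated by MYC were mostly lower in hypoxia. A list held 62 such genes, many of the nucleolus and others of DNA replication, cell division and protein folding. This list and the others below were chosen with earlier results of these data known. Their counts are therefore descriptions and not independent support. Of these, 54 fell, 1 rose and 7 did not pass. The median log2 change was -0.94, against -0.09 over all tested genes, of which limma called 34.7% lower. Tcof1, a factor for ribosomal RNA transcription, fell from 56.1 ± 1.55 to 11.3 ± 0.433 FPKM (SD, n = 3), a difference of -2.26 (SE 0.06, limma adjusted p = 2.94e-08). Plk1, a mitotic kinase gene, fell from 71.8 ± 4.55 to 10.9 ± 1.67 FPKM, and the replicative helicase gene Mcm5 from 82.5 ± 8.97 to 19.6 ± 2.24. Those last examples, with Mcm4 and Plk4, also belong to the machinery of DNA replication and cell division. The member that rose was Hk2, a hexokinase gene that hypoxia-inducible factors also activate (1.05).

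Ethanolamine moved few of these targets past the test. Against hypoxia its median was 0.09, with 49 of 62 members above 0 and 1 called, the sorbitol dehydrogenase gene Sord. Over all tested genes the median was 0.01 and 6287 of 11802 were above 0. Sord went from 47.1 ± 1.47 to 58.4 ± 2.03 FPKM (SD, n = 3), a difference of 0.31 (SE 0.05, limma adjusted p = 0.0436). No target passed when any 1 of the 9 libraries was left out. Against control the list with ethanolamine had 54 members lower and 1 higher, with a median of -0.73 against -0.08 over all genes.

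Genes that MYC is known to repress split. Of 6, 5 were tested, 3 rose in hypoxia against control and 2 did not pass (all tested genes, 24.7% higher). Cdkn1a, the gene of the cell cycle inhibitor p21, was at 13.7 to 14.8 FPKM in control and 155.6 to 180.6 in hypoxia (log2 change 3.49). Ndrg1 was at 14.7 to 17.1 and 104.8 to 118.7 FPKM (2.77), and Cdkn1b, the p27 gene, at 1.65 to 3.47 and 4.21 to 5.05 (0.74, limma adjusted p = 0.00954). Hypoxia is known to induce Ndrg1 by other routes. Cdkn2b (-0.38) and Gadd45a (-0.37) did not pass (limma adjusted p = 0.18 and 0.12), and Ndrg2 was under the filter.

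Of 3 known targets of MLX dimers, 2 rose in hypoxia against control and 1 did not pass, where 24.7% of all tested genes were called higher. Txnip, an inhibitor of thioredoxin and of glucose uptake, was at 37.3, 37.6 and 35.1 FPKM in control and 91.4, 96.4 and 96.9 in hypoxia, a rise of 1.36 (SE 0.05, limma adjusted p = 1.25e-07). Arrdc4, a related arrestin, was at 4.48, 4.88 and 5.19 FPKM and then 11.4, 10.2 and 10.4 (1.06). Klf10 was at 3.97 ± 0.138 and 4.03 ± 0.283 FPKM (SD, n = 3; 0.02, limma adjusted p = 0.868). With ethanolamine Txnip stood at 116, 109 and 111 FPKM, a difference of 0.24 against hypoxia that did not pass (limma adjusted p = 0.102). Txnip and Klf10 with ethanolamine both lay above all hypoxia libraries, as did 10.5% of all tested genes. In the same comparison Klf10 differed by 0.30 (limma adjusted p = 0.125) and Arrdc4 by -0.15 (limma adjusted p = 0.438), so the targets did not share a direction.

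Among the cofactors called in hypoxia against control, more fell than rose, and 8 of the 16 coactivators did not pass. Of 16 MYC coactivator genes 8 fell and none rose in hypoxia against control in limma (8 at an unadjusted p under 0.05, as were 63.3% of all tested genes; median -0.26), led by the helicase gene Ruvbl1 (-0.94), the acetyltransferase gene Kat2a (-0.94) and Hcfc1 (-0.92). Of 13 genes of the SIN3 and NCOR co-repressors that MXD proteins recruit, 7 fell and 3 rose (median -0.33). The histone-binding genes Rbbp7 and Rbbp4 were at -1.25 and -0.76, while Sap30 went from 95.2 ± 3.17 to 137.2 ± 1.09 FPKM (SD, n = 3), a change of 0.53. Sin3b (0.50) and Arid4b (0.36) also rose, while Sin3a was at -0.33. Of 9 partners of MGA in its Polycomb complex 6 fell and 1 rose (median -0.50), with Tfdp1 at -1.17, Cbx3 at -1.13 and L3mbtl2 at -0.92. The gene that rose was Rybp (0.78). Cbx3 is also in the list of MYC targets. Background shares for all these counts are the 24.7% higher and 34.7% lower given above. None passed in ethanolamine against hypoxia in limma, where 2 coactivators, 1 co-repressor and 2 partners of MGA had an unadjusted p under 0.05, as did 14.7% of all tested genes.

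**Figure D4:**
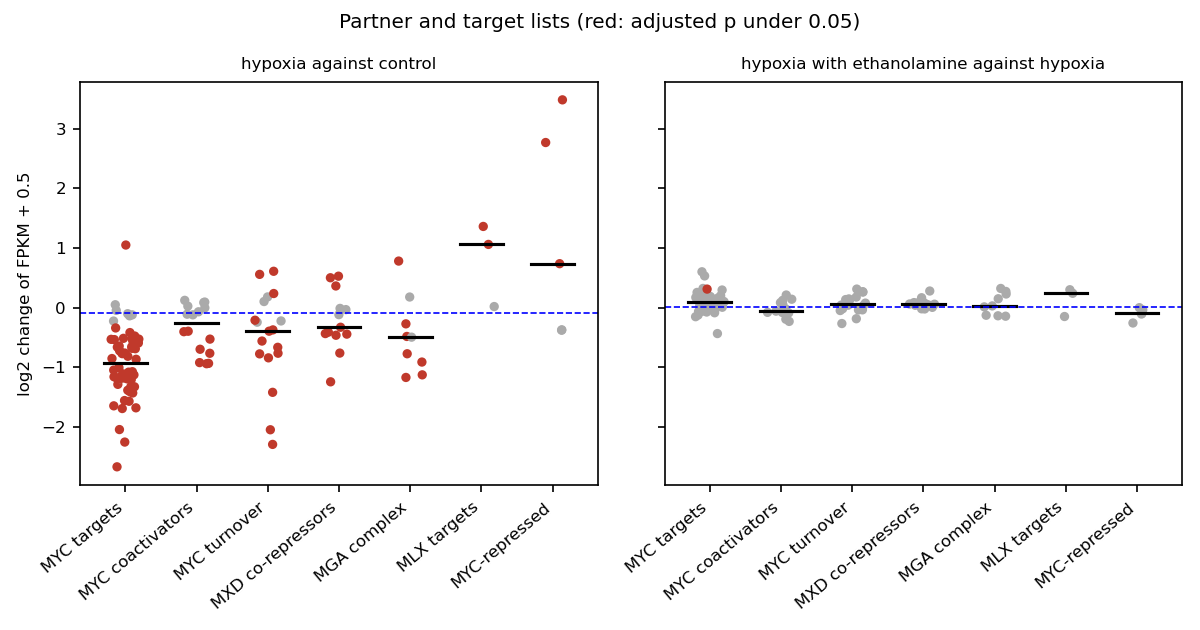
Log2 change of FPKM + 0.5 for each tested gene of 7 lists, in hypoxia against control (left) and ethanolamine against hypoxia (right). Red points passed a limma adjusted p of 0.05, black bars are list medians and dashed blue lines the median of all tested genes (-0.09 and 0.01). On the left 54 of 62 MYC targets are red below 0, and on the right 1 is red.

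Genes shaped like Myc and Mxi1 across the 9 libraries were sought among those with a mean of at least 5 FPKM, by the root mean square difference of log2 values centred on each gene's mean. Nearest to Myc, of 7241 genes, were Rsbn1 (0.12), Alcam (0.13), Ugcg (0.13) and Hsd17b7 (0.13). Rsbn1 averaged 8.19 FPKM in control, 13.8 in hypoxia and 10.4 when ethanolamine was added. Nearest to Mxi1, of 7240 others, were Atp7a (0.31), Eif1b (0.31), Cd52 (0.32) and Samsn1 (0.32). Atp7a averaged 5.28, 18.3 and 17.1 FPKM in the same order.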

How the data were processed

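Per the labels' protocols, total RNA of BV2 cells was made into messenger RNA libraries with a SMARTER kit. The authors deposited 1 table of FPKM values per gene for 9 libraries, 3 per group, with Ensembl identifiers and symbols. The submitters' processing notes name the builds GRCm38 and mm10. The aligner, the counter and strand use: not given in the sources used here. Low FPKM values did not resolve into whole reads (0.777% to 1.41% of values under 0.3 FPKM lay at the modal ratio between libraries), so read depth is unknown and no counting interval is given.

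Genes averaging 1 FPKM or more were tested on log2(FPKM + 0.5) with limma 3.58.1 (R 4.3.3, moderated with a mean-variance trend, all 9 libraries, 3 group means) and Benjamini-Hochberg adjustment over all 11802 genes at 0.05. The procedure was also run on simulated data with independent normal noise. Far fewer genes were changed there than were called in hypoxia against control, so that run does not give the error rate in these data. Gene positions come from GENCODE M21 (55154 of 55335 identifiers matched) and promoter windows from RefSeq. Of each supporting list, the genes named are those with the largest called changes, and all genes of short lists. Named outside this rule, with their values known, were Hk2, Mcm4, Plk4, Sin3a and further genes of the MYC turnover list. So were the genes that rose against their list, apart from Sap30. The network members and all lists were chosen with earlier results of these data known. Replicate numbers did not pair the libraries: the correlation of deviations from the group means was -0.117 to 0.109 over 9 same-number pairs. The 19 alternatives varied the pseudocount, filter, scaling, block, libraries fitted, trend and left-out library. Figures were drawn with matplotlib 3.10.9.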

Additional observations from a re-analysis of the deposited data

How the results depend on the processing

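In hypoxia against control, Mxd1, Mxi1 and Mnt passed in all 19 other settings, and Myc and Mxd3 in the 18 that tested them. Mxd3 met the filter of 1 FPKM only through its high controls. The number of members called was 5, and 3 with a filter of 5 FPKM, which removes Myc and Mxd3. It was 5 to 6 with a library left out. In ethanolamine against hypoxia, Myc passed in 0 of 18 settings (log2 -0.68 to -0.44, limma adjusted p = 0.0946 to 0.306). The number of MYC targets called there was 1, and it was 0 with no filter, with quantile scaling, with the replicate block, with only the groups compared, without the trend, and with any library left out (0 to 0). With the replicate block the members called were 5, 0 and 4 in the 3 comparisons, and 0 genes in all passed for ethanolamine against hypoxia. Over all genes that comparison gave 67 calls, 6 with only the groups compared, 40 with no filter, 39 with rescaling without mitochondrial and ribosomal RNA-like transcripts, and 0 to 38 with a library left out (0 without hypoxia library 3, 3 without hypoxia library 2).

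Signs turned only for members that did not pass. Max in hypoxia against control was 0.0106 with median-of-ratios scaling and 0.0111 with quantile scaling, and -0.227 to 0.0811 with a library left out. Mlx in ethanolamine against hypoxia was -0.00496 with quantile scaling. With a library left out, that comparison gave Max -0.0647 to 0.26, Mxi1 -0.26 to 0.13, Mnt -0.0999 to 0.0512, Mlx -0.10 to 0.18 and Mlxip -0.21 to 0.16, and Max against control with ethanolamine ran from -0.13 to 0.14. The causes were not tested. Mxd4 in hypoxia against control was 0.99 with a pseudocount of 1 and 2.41 with one of 0.1. Low values such as those of Mxd3, Mxd4 and Myc have the least precision, and their depth is unknown.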

Other observations

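Genes that control the stability of the MYC protein were mostly lower in hypoxia. Of 18 such genes 11 fell, 3 rose and 4 did not pass in hypoxia against control (median log2 change -0.39, all tested genes -0.09). Over all tested genes 34.7% were called lower and 24.7% higher. Aurka, a mitotic kinase that shields N-MYC from degradation, fell from 58.6 ± 3.54 to 11.6 ± 1.44 FPKM (SD, n = 3). Cip2a, an inhibitor of the phosphatase PP2A, fell from 18.3 ± 2.19 to 4.06 ± 0.789 FPKM, and Set, another PP2A inhibitor, from 441 ± 29.3 to 165 ± 18.1 FPKM. The genes that rose were Gsk3b (0.61, 10.6 ± 3.94 FPKM in hypoxia) and Fbxw7 (0.56), which encode a kinase and a ubiquitin ligase subunit that mark MYC for degradation, and Usp22 (0.24). Other genes that act in MYC degradation fell. These were Axin1 (-0.84), Skp2 (-0.77), Stub1 (-0.56), the Gsk3b relative Gsk3a (-0.40), and the PP2A genes Ppp2ca (-0.38) and Ppp2r5a (-0.21). Genes on both the stabilising and the degrading side were thus lower. With ethanolamine against hypoxia none of the 18 passed in limma and 2 had an unadjusted p under 0.05, as did 14.7% of all tested genes. These are transcript levels, and MYC protein was not measured here.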
